A study of Rattus norvegicus with 20 samples.

Results

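These results compare the epicenter of a contused rat spinal cord with the segments on either side of it, 14 and 28 days post injury (DPI). The members are 12 of the 20 libraries of the series. They were chosen by their labels as 4 epicenter, 4 rostral and 4 caudal libraries of DPI-14 and DPI-28. The libraries were compared within 4 blocks that share a day and a replicate number. The blocks are named here d14r1, d14r2, d28r1 and d28r3 after the day and the number, and each holds 1 epicenter, 1 rostral and 1 caudal library. All 12 libraries came from injured cord, with no further treatment named in the labels. The other 8 libraries are 6 of DPI-1 and 2 of sham cord. The DPI-1 libraries were used below for comparison and the sham libraries in no test. Total RNA from which ribosomal RNA had been removed was sequenced and read counts per gene were deposited. The labels used here do not give strain, sex, age or the animal behind each library. No label states that replicates are separate animals. The p-values thus measure only how far these samples scatter, and that scatter may be technical.

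In a contusion the tissue at the point of impact, the epicenter, is crushed and bleeds, while the segments toward the head (rostral) and toward the tail (caudal) keep their architecture and lose severed or demyelinated fibre tracts over the following weeks. In the weeks after injury the lesion core is known to fill with macrophages, fibroblasts and new vessels and to be bordered by reactive astrocytes. The study's title names paxillin, the product of Pxn, an adaptor protein that joins integrins to the actin cytoskeleton at focal adhesions, where migrating cells grip their matrix.

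The gene symbols of the deposited rows were used here as labels of rows only, since many of them go against what spinal cord expresses. The row Gfap, named for the main filament protein of astrocytes, held 0 reads on average over the 12 libraries, as did the macrophage and microglia rows Aif1, C1qa, C1qb and Tmem119, the myelin row Mag and the collagen row Col1a1. The myelin row Mbp held 0.5 reads on average. The labelled tissue could therefore not be checked by its defining markers. A role given below beside a row describes the gene the row is named after, and whether the reads of the row came from that gene was not tested.

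Each table held 30452 rows, of which 4318 had a placeholder for a name and were left out, leaving 26134 named rows. The late libraries held between 1545054 and 5233315 reads in named rows. Levels are given as CPM, read counts scaled to the total of named reads and then by trimmed mean of M values (TMM) factors. These factors were 1.18 to 1.29 in the 3 libraries of replicate number 3 and 0.858 to 1.04 in the other late libraries, so the shift of number 3 lay across all 3 positions and between the blocks. After a filter on low counts, 10948 rows were tested. In bulk RNA, fewer cells of a type and less RNA per cell cannot be told apart.

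At the late days, 1185 of the 10948 tested rows (10.8%) differed between the epicenter and the flanking segments at an edgeR adjusted p under 0.05, and 2824 (25.8%) had an unadjusted p under 0.05. Of the 1185 rows, 616 (5.63%) were higher in the epicenter and 569 (5.2%) were lower. Most of the differences were modest. The median log2 difference was 0.81 among the rises and -0.84 among the falls, and 0.01 over all tested rows. At least 2-fold change was reached by 198 of the rises and 159 of the falls, and at least 4-fold change by 21 and 7. The median level of the rises was 47.0 CPM in the flanks and 82.1 CPM in the epicenter. The falls had a median of 68.7 CPM in the flanks and 40.1 CPM in the epicenter. Together the 616 rises held 8.10% to 12.2% of the named reads in the epicenter libraries, 5.30% to 6.21% in the rostral and 4.39% to 6.59% in the caudal libraries. The 569 falls held 5.37% to 7.92% in the epicenter, 9.71% to 11.7% in the rostral and 10.5% to 13.5% in the caudal libraries. These shares did not overlap between the epicenter and the flanks in either direction, and the rows were chosen on the same contrast.

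The count rested on the blocking and on single libraries. Without the block the same test called 125 rows. Leaving out 1 library gave 194 calls without the d14r1 epicenter, 230 without the d28r1 epicenter, 522 without the d28r3 epicenter and 745 without the d28r1 caudal library. Every row called in the full comparison and tested in an alternative kept its sign in that alternative. The alternatives reused all or most of the libraries that chose the rows, so the kept sign is not independent support.

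**Figure D1:**
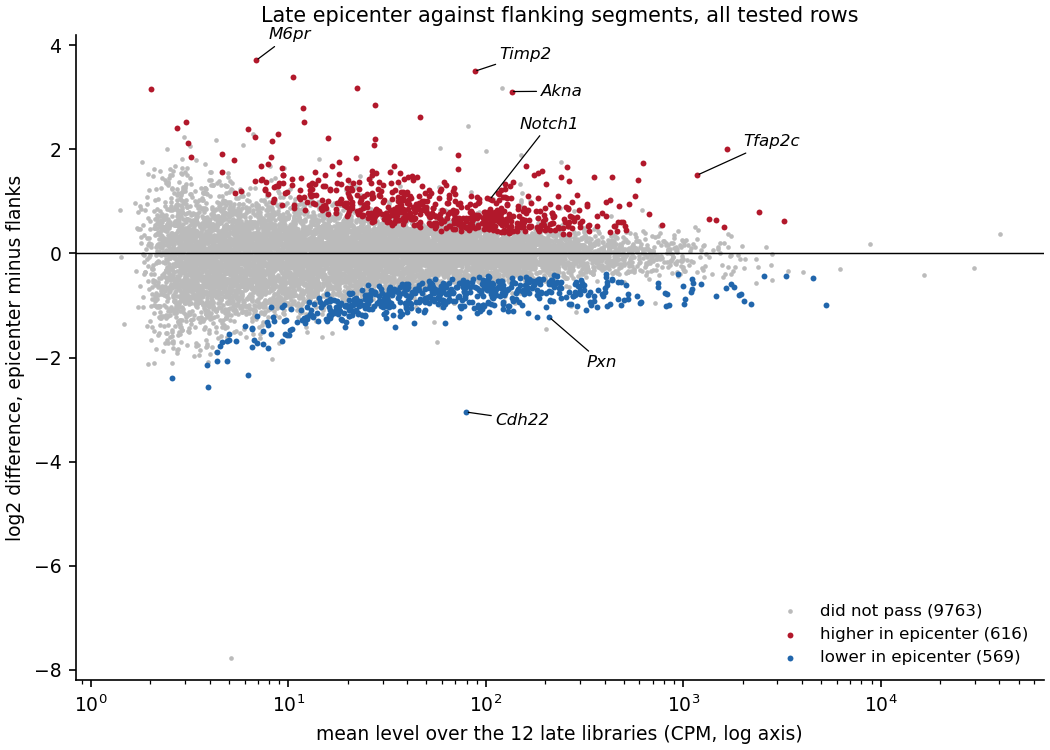
Each point is 1 of the 10948 tested rows. The horizontal axis is its mean level over the 12 late libraries in CPM on a log axis and the vertical axis its log2 difference, epicenter minus flanks. The 616 rows called higher are red, the 569 called lower are blue and the other rows are grey. Calls are spread over the range of levels, and most lie within a log2 difference of 1 to either side of 0.

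Across the blocks, the epicenter library was above both of its flanking libraries in all 4 blocks for 867 of the tested rows (7.92%) and below both for 753 (6.88%). Among the rises, 466 of 616 had this ordering in all 4 blocks, and among the falls 447 of 569 had the reverse. The rises and falls were called on this contrast in the same 4 blocks, so these counts are not independent support. After each block's mean was removed, the first principal component over 9136 rows held 40.6% of the variance. The epicenter libraries lay on its positive side, at 41.4 for d14r1, 11.9 for d14r2, 36.6 for d28r1 and 30.3 for d28r3. All 8 flanking libraries lay between -30.5 and -1.83. The d14r2 block had the smallest separation on this axis.

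The rows named next were picked by a fixed rule: the 12 rows of largest rise and the 12 of largest fall that were called, reached 10 CPM on average in the higher position and had the epicenter outside both flanks in all 4 blocks. There were 426 rises and 399 falls eligible. Values of 4 libraries are always given in the order d14r1, d14r2, d28r1, d28r3. Where a row is named with its log2 difference alone, the edgeR adjusted p follows in parentheses.

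Among the rises, Timp2, named for a secreted inhibitor of matrix metalloproteinases, was at 494, 234, 149 and 27.2 CPM in the epicenter, with 18.6, 38.7, 11.4 and 7.05 CPM in the segment rostral to it and 31.2, 33.8, 9.83 and 0.4 CPM in the caudal one. Each epicenter library exceeded both flanks of its own block at least 3-fold, although the lowest epicenter library, that of d28r3, was below 3 of the 4 flanking libraries of DPI-14. Relative to the flanks, Timp2 had a log2 difference of 3.50 (SE 0.397, edgeR adjusted p = 0.0017). Plg, named for plasminogen, the precursor of the protease plasmin, was at 27.9, 11.4, 12.8 and 3.74 CPM in the epicenter libraries, against 2.7, 5.38, 3.8 and 1.41 CPM rostrally and 2.69, 0.457, 2.18 and 0.2 CPM caudally. The d28r3 epicenter library overlapped with the flanks of other blocks. The log2 difference of Plg was 2.40 (SE 0.464, edgeR adjusted p = 0.00446), and without the d14r1 epicenter library its adjusted p was 0.0813. Orm1, named for an acute-phase plasma glycoprotein, was at 61.3, 39.2, 48.1 and 69.4 CPM in the epicenter, with 3.04, 1.35, 11 and 9.67 CPM in the segment rostral to it and 14.5, 9.14, 0.819 and 0 CPM in the caudal one. The epicenter and the flanks of Orm1 did not overlap, and the spread among the flanks was wide. Its log2 difference was 3.19 (SE 0.795, edgeR adjusted p = 0.0412).

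Akna, named for an AT-hook protein that organises microtubules, was among the most abundant of the large rises. It was at 497, 338, 276 and 199.8 CPM in the epicenter libraries, against 30.7, 30.6, 75.3 and 37.3 CPM rostrally and 33.4, 83.2, 13.6 and 5.61 CPM caudally. The lowest epicenter library was more than 2 times the highest flanking library. The log2 difference of Akna was 3.11 (SE 0.573, edgeR adjusted p = 0.0159). The edgeR adjusted p of Akna was 0.101 without the d14r1 epicenter, 0.0741 without the d28r1 epicenter and 0.0621 without the d28r3 epicenter library. For Orm1 it was 0.168, 0.162 and 0.145 without the same 3 libraries and 0.0802 without the d14r2 epicenter library. Leaving out 1 flanking library put the adjusted p of Orm1 at 0.0936 (d14r1 rostral), 0.0579 (d14r1 caudal), 0.0663 (d14r2 rostral), 0.0543 (d14r2 caudal), 0.0666 (d28r1 caudal) and 0.0547 (d28r3 rostral). The fold of both rows kept its direction in every alternative.

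The largest fold belonged to M6pr, named for a mannose 6-phosphate receptor that carries enzymes to lysosomes. It was at 38.8, 20.1, 10.5 and 2.67 CPM in the epicenter, with 0.676, 1.35, 3.38 and 0 CPM in the segment rostral to it and 1.08, 4.11, 0 and 0 CPM in the caudal one. This row held few reads, and 3 of the 8 flanking libraries had 0. Its log2 difference was 3.71 (SE 0.621, edgeR adjusted p = 0.0026). Mcur1, named for a regulator of calcium uptake into mitochondria, was at 30.1, 57.5, 11.8 and 8.01 CPM in the epicenter libraries, against 1.69, 2.36, 1.27 and 0.403 CPM rostrally and 3.23, 6.4, 3.0 and 0.801 CPM caudally. The epicenter and the flanks of Mcur1 did not overlap. Its log2 difference was 3.39 (SE 0.345, edgeR adjusted p = 8.40e-05).

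The remaining rises carry names from several tissues. Nptx1, named for a neuronal pentraxin secreted at synapses, was at 139.5, 74.2, 38.2 and 13.4 CPM in the epicenter, with 12.2, 2.69, 10.3 and 3.83 CPM in the segment rostral to it and 9.15, 19.2, 6.0 and 0.801 CPM in the caudal one. Each epicenter library was above both of its own flanks, and the d28r3 epicenter library was below the d14r2 caudal library. Nptx1 had a log2 difference of 2.86 (SE 0.41, edgeR adjusted p = 0.00221). Myoz1, named for a protein of the Z discs of skeletal muscle, was at 171, 106, 103 and 35.8 CPM in the epicenter libraries, against 11.1, 27.9, 24.9 and 7.05 CPM rostrally and 19.4, 37.9, 10.6 and 3.8 CPM caudally. Only the d28r3 epicenter library came within the range of the flanks. Its log2 difference was 2.62 (SE 0.274, edgeR adjusted p = 0.000213). Dsg3, named for a cadherin of desmosomes in skin, had a log2 difference of 2.79 (SE 0.497, edgeR adjusted p = 0.00422). Klra22, named for a receptor of natural killer cells, had a log2 difference of 2.52 (SE 0.327, edgeR adjusted p = 0.000486). For Rps12, named for a ribosomal protein, it was 2.30 (SE 0.373, edgeR adjusted p = 0.00193), and for Snora33, named for a small nucleolar RNA, 2.21 (SE 0.293, edgeR adjusted p = 0.000574). The epicenter libraries of Klra22 spanned 1.60 to 55.5 CPM, against 0.201 to 8.75 CPM rostrally and 0 to 14.6 CPM caudally. Those of Snora33 spanned 6.41 to 72.9 CPM, against 4.43 to 9.46 CPM rostrally and 2.20 to 13.5 CPM caudally. In both rows the lowest epicenter library lay within the range of the flanks. The epicenter and the flanks of Dsg3 and of Rps12 did not overlap. The calls of Timp2, M6pr, Mcur1, Nptx1, Myoz1, Dsg3, Klra22, Rps12 and Snora33 held when any 1 library or any 1 block was left out.

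The lowest p-value over all rows belonged to Tfap2c, named for a transcription factor of the AP-2 family. It was at 3723, 1664, 2586 and 532 CPM in the epicenter, with 898, 456, 1124 and 267 CPM in the segment rostral to it and 1039, 689.7, 977 and 197 CPM in the caudal one. The epicenter was between about 2 and 4 times each of its own flanks in every block, while the level was lowest in d28r3 at all 3 positions. Tfap2c had a log2 difference of 1.5 (SE 0.146, edgeR adjusted p = 7.97e-05). Its call was lost only without the block (adjusted p = 0.123).

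Among the falls named by the rule, Togaram1, named for a microtubule-binding protein of cilia, was at 15.6, 18.3, 20.1 and 10.7 CPM in the epicenter libraries, against 41.2, 29.6, 32.3 and 31.4 CPM rostrally and 43.6, 43.4, 79.7 and 50.7 CPM caudally. All 4 epicenter libraries were below all 8 flanking libraries. Togaram1 had a log2 difference of -1.42 (SE 0.26, edgeR adjusted p = 0.00338). Med28, named for a subunit of the Mediator complex that joins transcription factors to RNA polymerase II, was at 10.9, 13.7, 12 and 49.7 CPM in the epicenter, with 37.2, 24.2, 31.4 and 80.2 CPM in the segment rostral to it and 22.1, 25.1, 58.1 and 155 CPM in the caudal one. Each epicenter library was below its own flanks, and all 3 positions of d28r3 were higher than those of the other blocks. The log2 difference of Med28 was -1.34 (SE 0.252, edgeR adjusted p = 0.00399). Both calls held when any 1 library or block was left out, and that of Med28 was lost without the block (adjusted p = 0.149).

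The largest fall belonged to Cdh22, named for a cadherin of the nervous system. It was at 9.42, 21.8, 11.8 and 0 CPM in the epicenter libraries, against 65.2, 213, 18.6 and 7.05 CPM rostrally and 288, 262, 40.1 and 18.6 CPM caudally. The flanks themselves spanned a wide range and overlapped with the epicenter. Its log2 difference was -3.05 (SE 0.756, edgeR adjusted p = 0.041). Mapk14, named for the stress kinase p38 alpha, was at 1.45, 3.21, 4.71 and 5.88 CPM in the epicenter, with 7.43, 9.42, 9.71 and 10.7 CPM in the segment rostral to it and 4.84, 9.14, 26.2 and 19.2 CPM in the caudal one. Its epicenter libraries were below their own flanks, and the highest of them overlapped with the lowest flank. Mapk14 had a log2 difference of -1.68 (SE 0.368, edgeR adjusted p = 0.00863). Other falls by the rule were Eif3h (translation initiation) at -1.82 (edgeR adjusted p = 0.0249), Adar (editing of adenosine in RNA) at -1.41 (0.0086) and Efna1 (ephrin-A1, a ligand of Eph receptors) at -1.48 (0.0061). Tfpi (an inhibitor of the tissue factor pathway of clotting) was at -1.46 (0.0389), Dcst2 at -1.57 (0.025), Leprotl1 at -1.55 (0.0112) and the olfactory receptor row Or56a3b.1 at -1.54 (0.0323).

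Most of these falls did not hold their call when 1 epicenter library was left out. Without the d14r1 epicenter the edgeR adjusted p was 0.200 for Cdh22, 0.0880 for Eif3h, 0.0574 for Mapk14, 0.124 for Dcst2, 0.0788 for Leprotl1, 0.0989 for Or56a3b.1, 0.213 for Tfpi and 0.0708 for Adar. Without the d28r1 epicenter it was 0.136 for Eif3h, 0.0694 for Mapk14, 0.129 for Dcst2, 0.0709 for Leprotl1, 0.157 for Or56a3b.1 and 0.142 for Tfpi. Leaving out the d28r3 epicenter gave 0.0934 for Cdh22, 0.0993 for Eif3h, 0.116 for Dcst2, 0.165 for Or56a3b.1 and 0.0564 for Adar. The d14r2 epicenter mattered to Cdh22 (0.113) and Tfpi (0.0569). Of the flanking libraries, the d14r1 rostral mattered to Dcst2 (0.0503) and Or56a3b.1 (0.0528), the d14r2 rostral to Cdh22 (0.0590), the d14r2 caudal to Cdh22 (0.0671) and Tfpi (0.0835), and the d28r1 caudal to Cdh22 (0.0857) and Tfpi (0.0680). Without the d28r3 caudal library it was 0.0578 for Cdh22, 0.0506 for Dcst2, 0.0699 for Or56a3b.1 and 0.0668 for Tfpi. Efna1 lost its call only without the d28r1 block (0.0506) or without blocking (0.0923). None of these rows changed sign.

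**Figure D2:**
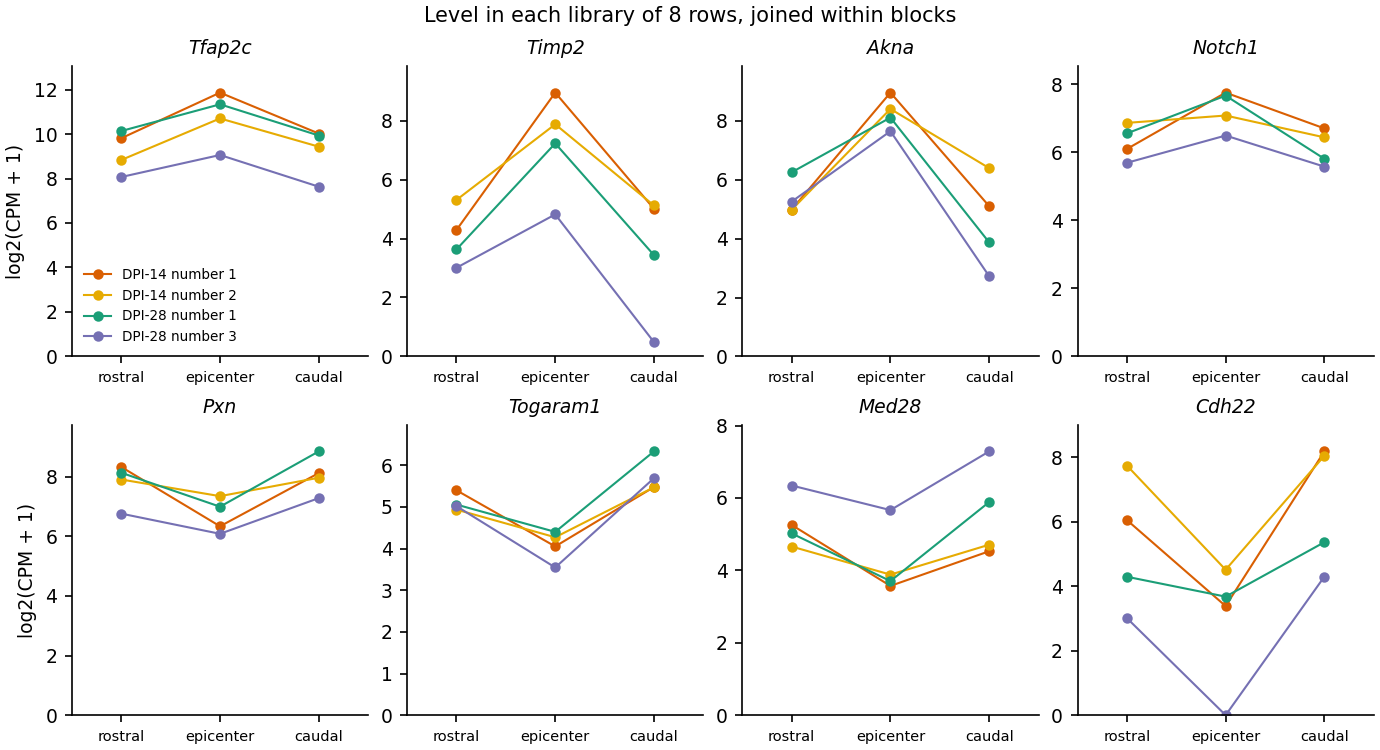
Each panel is 1 row, with log2(CPM + 1) on the vertical axis and position on the horizontal axis. Points are single libraries and lines join the 3 libraries of a block. The epicenter point is above both flanks in all 4 blocks for Tfap2c, Timp2, Akna and Notch1, and below both for Pxn, Togaram1, Med28 and Cdh22.

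The row of the gene in the study's title, Pxn, was lower in the epicenter. It was at 79.7, 162, 126 and 66.8 CPM in the epicenter libraries, against 319.6, 239, 279 and 107 CPM rostrally and 277, 249, 459.6 and 154 CPM caudally. Each epicenter library was below both of its own flanks, by the widest margin in d14r1, while the epicenter values of d14r2 and d28r1 were above the d28r3 rostral value. This amounted to a log2 difference of -1.23 (SE 0.204, edgeR adjusted p = 0.00226). The call held when any 1 library or block was left out and was lost without the block (adjusted p = 0.0986). At DPI-1 the level of Pxn was 237 and 489 CPM in the epicenter libraries of numbers 1 and 2, against 392 and 388 CPM rostrally and 429 and 452 CPM caudally. The DPI-1 epicenter was thus below both flanks in number 1 and above both in number 2.

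Of the 22 rows named after proteins of focal adhesions and cell migration, Pxn included, 12 passed the filter, 1 was called higher and 2 lower (25% called, against 10.8% of all rows), with a median log2 difference of -0.22. Actn1, named for the alpha-actinin that crosslinks actin at adhesions, was at 296, 203, 209 and 295 CPM in the epicenter, with 150.0, 134, 138 and 129.9 CPM in the segment rostral to it and 119, 165, 74.8 and 113 CPM in the caudal one. Its epicenter libraries were all above its flanks. The log2 difference was 0.97 (SE 0.164, edgeR adjusted p = 0.00234), and the call held when any 1 library was left out. Actn4, its close relative, moved the other way, at 70.7, 57.7, 74.2 and 71.6 CPM in the epicenter libraries, against 119.6, 108, 119 and 89.8 CPM rostrally and 133, 66.3, 267 and 129 CPM caudally. Each epicenter library of Actn4 was below both of its own flanks, and the d14r2 caudal library lay within the range of the epicenter libraries. The log2 difference of Actn4 was -0.85 (SE 0.219, edgeR adjusted p = 0.0214), and its adjusted p was 0.110, 0.135 and 0.0547 without the epicenter library of d14r1, d28r1 and d28r3. The integrin rows Itgb1 and Itga5 had log2 differences of -0.08 and -0.03 (adjusted p = 0.83 and 0.886). The rows Ptk2, Zyx and Src, named for other parts of the same signal path, had too few reads to be tested, and Flna, Rac1 and Crk held 0 reads on average.

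The rows named after markers of cell types and processes were counted list by list, beside the shares of all tested rows that were called (10.8%), called higher (5.63%) and called lower (5.2%). Each list held 0 to 3 calls, so 1 row moves its share by a large step. These lists were written with earlier results of these data known. Of 22 macrophage and microglia names, 11 averaged under 1 read, and 8 were tested, with 1 called (12.5%, against 10.8% of all rows). That row, Spp1, named for osteopontin, was at 31.2, 24, 50.7 and 31 CPM in the epicenter, with 18.6, 21.2, 28.5 and 20.3 CPM in the segment rostral to it and 24.8, 17.4, 23.7 and 13.2 CPM in the caudal one. Its epicenter libraries were above their own flanks in all 4 blocks by small margins. The log2 difference of Spp1 was 0.68 (SE 0.197, edgeR adjusted p = 0.0346). Its adjusted p lay at 0.122 without the d14r1, 0.232 without the d28r1 and 0.143 without the d28r3 epicenter library, and at 0.0737 (d14r1 rostral), 0.0509 (d14r2 caudal), 0.0581 (d28r1 rostral), 0.0894 (d28r1 caudal) and 0.0633 (d28r3 caudal) without a flanking library. The median log2 difference of the 8 rows was -0.23. The summed level of all 22 names was 443 to 587 CPM in the epicenter and 478 to 557 CPM in the flanks, so the ranges overlapped. Most of this sum was the row Mrc1, at 354 CPM in the epicenter and 347 CPM in the flanks on average. Lysosome rows were split, with Ctsl (a cathepsin) higher at 0.60 (adjusted p = 0.0145) and Hexa (a hexosaminidase subunit) and Npc2 (a carrier of cholesterol) lower at -1.17 (adjusted p = 0.0159) and -0.98 (adjusted p = 0.0453), among 10 tested (30% called, against 10.8% of all rows).

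Of 9 tested astrocyte names, Sox9, a transcription factor of glia, and Slc4a4, a bicarbonate transporter, were higher, at 0.69 (0.0193) and 0.95 (0.0349), and none was lower (22.2% called higher, against 5.63% of all rows). The list median was 0.06. Among 6 tested oligodendrocyte and myelin names, Pdgfra, the receptor that marks oligodendrocyte precursors and also fibroblasts, was higher at 0.73 (0.0152), 1 call among the 6 (16.7%). None of 11 tested neuron and synapse rows was called, and their median log2 difference was -0.31. Rbfox3, named for the nuclear marker NeuN, was at 192 CPM in the epicenter and 196 CPM in the flanks on average. None of 4 tested Schwann cell rows was called. Of 8 tested ependymal names, the ciliary rows Dnah5 and Cfap43 were higher, at 0.73 (0.0165) and 0.59 (0.0168), which is 25% of the list against 5.63% of all rows. The other 6 did not pass, among them the abundant ciliary rows Hydin at 0.067 (0.769) and Spag17 at -0.076 (0.807), and Dnah9 at 0.027 (0.946).

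Vascular and matrix rows went in both directions. Of 9 tested endothelial names, Emcn, named for endomucin of venous and capillary endothelium, was higher, at 85.5, 58.4, 39.2 and 46.5 CPM in the epicenter libraries, against 39.9, 25.9, 28.1 and 19.7 CPM rostrally and 47.4, 36.6, 19.7 and 8.21 CPM caudally. Its epicenter was above both flanks in every block, and the 2 lowest epicenter libraries overlapped with the highest flanks. Emcn had a log2 difference of 1.08 (SE 0.221, edgeR adjusted p = 0.0061), with an adjusted p of 0.0527 without the d28r3 epicenter library. Tek, named for the receptor of angiopoietins, was lower at -1.43 (0.0409), with a mean of 3.02 CPM in the epicenter and 8.29 CPM in the flanks. Emcn and Tek were the 2 calls of the endothelial list (22.2%, against 10.8% of all rows). Tek lost the call without any 1 of 8 libraries, with adjusted p of 0.0908, 0.0862, 0.164 and 0.145 without the epicenter library of d14r1, d14r2, d28r1 and d28r3, 0.0956 without the d14r1 rostral, and 0.0711, 0.0841 and 0.0790 without the caudal library of d14r2, d28r1 and d28r3. Of 10 tested fibroblast and matrix rows, Thbs1 (thrombospondin 1) was higher at 0.63 (0.0214) and Col4a2 (a basement membrane collagen) lower at -0.61 (0.0363), so that 20% of the list was called, against 10.8% of all rows. Tagln (transgelin of smooth muscle) was lower at -0.69 (0.0237), the only call among 6 pericyte and smooth muscle rows (16.7%).

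Of 8 tested rows of angiogenesis signalling, 1 was called (12.5%, against 10.8% of all rows). Notch1, the receptor that shapes vessel sprouts and the fate of neural stem cells, was at 215, 135, 202 and 89.2 CPM in the epicenter, with 67.6, 116, 93.3 and 50.8 CPM in the segment rostral to it and 103, 85.9, 55.1 and 46.9 CPM in the caudal one. Each epicenter library was above both of its own flanks, narrowly so in d14r2. For Notch1 the log2 difference was 1.04 (SE 0.185, edgeR adjusted p = 0.00311), and the call held when any 1 late library was left out. The call of Notch1 held in 8 of the 9 alternatives of scaling, filter, test, block and fit. Among 10 tested cell cycle rows, 1 had a positive and 9 a negative log2 difference, while 5582 of all 10948 tested rows had a positive one. Of the 10 rows, 2 were called, both lower (20%, against 5.2% of all rows), and the list median was -0.40. Ccna2, named for cyclin A2, was at 14.5, 23.4, 12.8 and 40.6 CPM in the epicenter libraries, against 34.5, 36.3, 34.4 and 85 CPM rostrally and 24.2, 39.3, 22.4 and 105 CPM caudally, which put the epicenter below both flanks in every block. Its log2 difference was -1.02 (SE 0.19, edgeR adjusted p = 0.00381). The call of Ccna2 held when any 1 late library was left out and in 8 of the same 9 alternatives. Cenpf, named for a kinetochore protein, was lower at -0.76 (0.0232). Of 7 tested lymphocyte rows, Il7r (the interleukin 7 receptor) was higher at 0.77 (0.0386), the only call of the list (14.3% called higher, against 5.63% of all rows). Its adjusted p was 0.234, 0.145 and 0.156 without the epicenter library of d14r1, d28r1 and d28r3, and 0.0982 (d14r1 rostral), 0.0903 (d14r1 caudal), 0.0506 (d14r2 rostral) and 0.0737 (d28r3 caudal) without a flanking library. Among 4 tested blood and granulocyte rows, Slc4a1, the anion exchanger of red cells, was lower at -0.75 (0.0266), 1 call among the 4 (25%).

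The most abundant rows of the series did not pass the test. Dcaf7 had a log2 difference of 0.38 (edgeR adjusted p = 0.397) and Dcx of -0.28 (0.419). Ceacam1, a far less abundant row at 44.3 CPM in the epicenter and 29.4 CPM in the flanks on average, was at 0.58. Its edgeR adjusted p was 0.0553, just outside the threshold, and 0.0347 without the d28r3 rostral library. The row did not pass in 7 of the 9 alternatives of scaling, filter, test, block and fit, and passed in the others.

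Whether the calls carried over to a block that had not contributed to them was examined by calling rows from 3 blocks and reading the direction in the fourth. From the blocks without d14r1, 138 rows were called higher and all 138 were higher in the epicenter of d14r1. Of the 86 rows called lower from those blocks, 84 were lower there. In d28r1, 170 of 172 rises (98.8%) and 109 of 110 falls (99.1%) kept their direction. In d28r3, 234 of 249 rises (94.0%) and 210 of 214 falls (98.1%) did so. The d14r2 block was the weakest, with 522 of 656 rises (79.6%) and 650 of 811 falls (80.1%). Over all tested rows, 49.7% to 53.5% were higher in the epicenter of the left-out block. The number of calls from 3 blocks ranged from 224 without d14r1 to 1467 without d14r2. The sizes were lower in d14r2 as well. For the 616 rises, the median within-block difference in log2(CPM + 1) was 0.99 in d14r1, 0.50 in d14r2, 0.93 in d28r1 and 0.82 in d28r3. For the 569 falls it was -1.10, -0.38, -0.99 and -0.71.

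**Figure D3:**
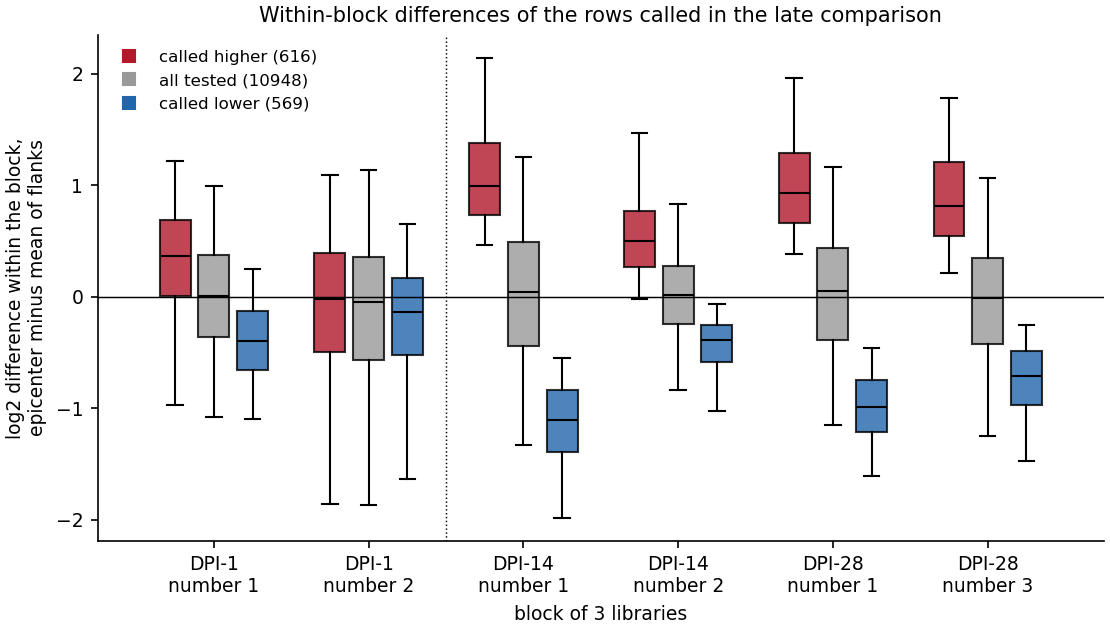
Boxes show, for each block of 3 libraries, the log2 difference of CPM + 1 between the epicenter and the mean of its flanks (box: quartiles, line: median, whiskers: 5th to 95th percentile). Rows called higher in the late comparison are red, those called lower blue and all tested rows grey. The late blocks, to the right of the dotted line, were used to choose the rows and the DPI-1 blocks were not. The separation is narrowest in d14r2 among the late blocks, and at DPI-1 the boxes overlap, with medians of 0.36 and -0.02 for the rises.

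The epicenter was also compared with each flank apart. Against the rostral libraries 230 rows (2.1%) were called, 141 higher and 89 lower in the epicenter. Against the caudal libraries 919 rows (8.39%) were called, 476 higher and 443 lower. Before adjustment, 1990 rows (18.2%) were under 0.05 against the rostral and 2648 rows (24.2%) against the caudal libraries. Of the rows called, 209 were shared, which is 90.9% of the rostral and 22.7% of the caudal calls. These comparisons share the epicenter libraries. Between the rostral and the caudal libraries themselves, 0 rows were called by edgeR, 332 rows (3.03%) were under 0.05 before adjustment, and 1 was called by DESeq2.

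Both flank counts moved with single blocks and libraries. Without the d28r1 block 8 rows were called against the rostral and 7 against the caudal libraries, and without the d28r3 block 6 and 8. Without the d14r1 block the counts were 4 and 687, and without the d14r2 block 539 and 1376. Whether the 2 counts differ was not tested apart from the comparison of the flanks with each other. The count against the rostral libraries was 5 without the d14r1 rostral, 5 without the d14r1 epicenter, 8 without the d28r1 rostral, 4 without the d28r1 epicenter, 38 without the d28r3 rostral, 7 without the d28r3 epicenter and 526 without the d14r2 epicenter library. That against the caudal libraries was 102, 156 and 436 without the epicenter library of d14r1, d28r1 and d28r3, and 104 and 272 without the caudal library of d28r1 and d28r3.

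The largest differences from the rostral libraries were the rises of Mcur1 (log2 difference 4.05), M6pr (3.49) and Timp2 (3.29) and the falls of Eif3h (-2.17), Fhip1b (-1.47) and Efna1 (-1.43). Their edgeR adjusted p values were 0.000178, 0.0442, 0.0263, 0.0466, 0.0403 and 0.0466. Mcur1 kept its call whichever library was left out. The other 5 rows lost theirs without the d14r1 epicenter (adjusted p 0.102 to 0.258), the d14r1 rostral (0.0643 to 0.217), the d28r1 epicenter (0.167 to 0.217) or the d28r3 epicenter library (0.0797 to 0.152). Further losses came without the d28r1 rostral (Timp2 0.0810, Eif3h 0.114, Fhip1b 0.0996, Efna1 0.110) and the d28r3 rostral library (M6pr 0.0831, Eif3h 0.0861, Fhip1b 0.0590, Efna1 0.0572). Single rows were also lost without the d14r2 rostral (M6pr 0.0878, Fhip1b 0.0504, Efna1 0.0683), the d14r2 epicenter (Efna1 0.0677) and a caudal library (M6pr 0.0547 for d14r1 and 0.0613 for d28r3, Eif3h 0.0513 for d14r2 and 0.0550 for d28r3, Efna1 0.0556 for d28r1 and 0.0644 for d28r3).

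The largest differences from the caudal libraries were the rises of M6pr (log2 difference 4.01, adjusted p = 0.0124), Timp2 (3.73, 0.00643) and Akna (3.58, 0.0336) and the falls of Cdh22 (-3.58, 0.0108), Uvrag (-2.06, 0.0231) and Folr1 (-2.0, 0.0129). Uvrag is named for a protein of autophagy and Folr1 for a folate receptor. Timp2 kept its call whichever library was left out. Without the d14r1 epicenter the adjusted p was 0.0872 for M6pr, 0.129 for Akna, 0.0620 for Cdh22, 0.0605 for Uvrag and 0.0700 for Folr1. Without the d28r1 epicenter it was 0.102 for Akna, 0.106 for Uvrag and 0.0612 for Folr1, and without the d28r3 epicenter 0.0756 for Akna and 0.0921 for Uvrag. Without the d28r1 caudal library it was 0.0602 for M6pr, 0.128 for Akna, 0.112 for Uvrag and 0.0659 for Folr1. The d28r3 caudal library mattered to the same rows, at 0.0515, 0.0796, 0.145 and 0.0584, and the d14r1 caudal library to Akna (0.0931).

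In the rows called against both flanks together, the rostral level lay nearer to the epicenter than the caudal level more often than not. The fitted rostral level was above the caudal level in 472 of the 616 rises (76.6%, against 51.0% of all tested rows). It was below the caudal level in 451 of the 569 falls (79.3%, against 49.0% of all rows). The blocks were not alike in this. The median rostral minus caudal difference of the rises was -0.17 in d14r1, -0.01 in d14r2, 0.32 in d28r1 and 0.32 in d28r3. For the falls it was 0.14, -0.11, -0.39 and -0.24. The rostral libraries thus lay toward the epicenter in both DPI-28 blocks and away from it in d14r1. This difference between the days was not tested.

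**Figure D4:**
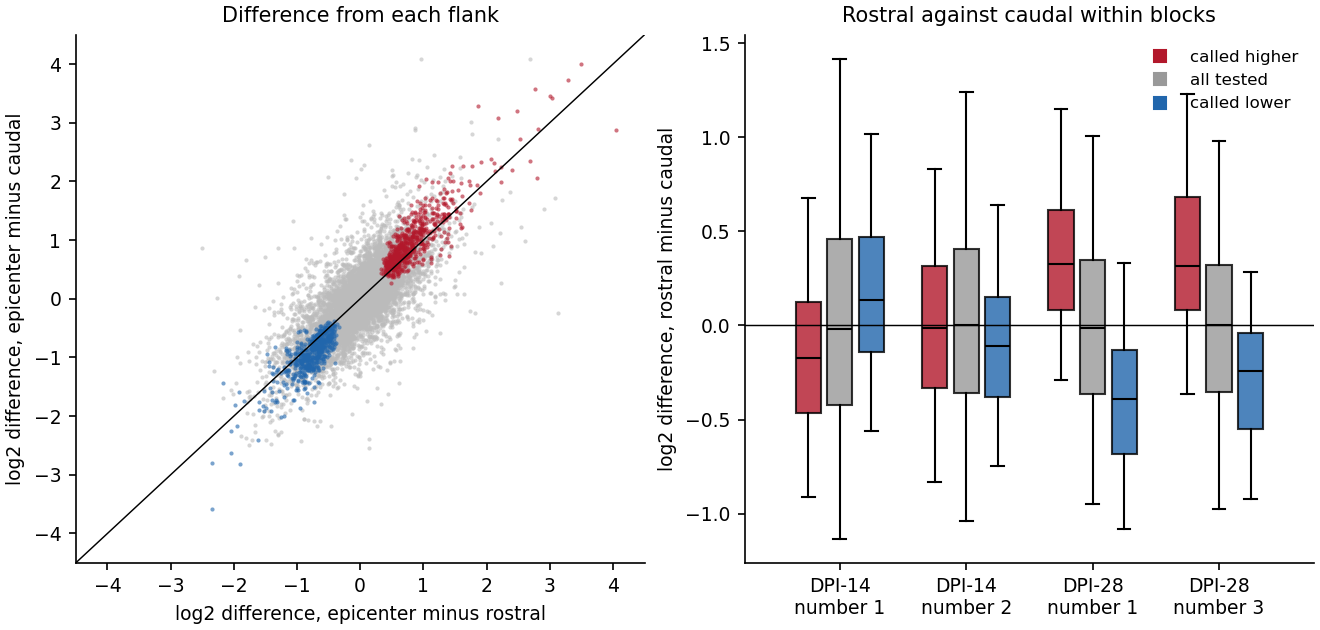
Left, each point is a tested row, with its log2 difference from the rostral libraries on the horizontal and from the caudal libraries on the vertical axis, and the line marks equal differences. Rows called higher against both flanks together are red and rows called lower blue, and 3 rows lie outside the axes. Right, boxes show the rostral minus caudal log2 difference in each late block (box: quartiles, line: median, whiskers: 5th to 95th percentile). The red and blue medians part in both DPI-28 blocks, at 0.32 against -0.39 and 0.32 against -0.24.

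The excess of the epicenter over its flanks was compared between the late days. At DPI-28 against DPI-14, edgeR called 0 rows, 238 rows (2.17%) were under 0.05 before adjustment, and 0 were called by DESeq2. The difference, DPI-28 minus DPI-14, was positive in 62.5% of the rises, 37.1% of the falls and 50.4% of all rows. The DPI-14 blocks were not alike. The median within-block difference of the rises was 0.99 in d14r1 and 0.50 in d14r2, against 0.93 in d28r1 and 0.82 in d28r3. The count was 4 with no filter on low counts, 2 without the d14r2 epicenter library and 3 without the d14r2 block.

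The DPI-1 libraries had no part in choosing the rows. At DPI-1 the epicenter was higher, on the mean of both blocks, in 400 of the 616 late rises (64.9%, against 46.3% of all tested rows) and lower in 478 of the 569 late falls (84.0%, against 53.7%). The sizes were small. For the rises the median log2 difference was 0.36 in the DPI-1 block of number 1 and -0.02 in that of number 2. For the falls it was -0.40 and -0.13.

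Only 3 of 10538 rows (0.0285%) had a late excess that differed from that of DPI-1 by edgeR's test of the interaction, with 930 rows (8.83%) under 0.05 before adjustment and 86 called by DESeq2. They were Tfap2c, Notch1 and RGD1304728, a row with a provisional name. At DPI-1 the level of Notch1 was 11.4 and 28.9 CPM in the epicenter libraries of numbers 1 and 2, against 75.4 and 67.5 CPM rostrally and 28.8 and 128 CPM caudally. The DPI-1 epicenter of Notch1 was thus below both flanks in both blocks, the reverse of the late days. The late excess exceeded that of DPI-1 by 2.98 (SE 0.490, adjusted p = 0.0260) on the log2 scale for Notch1. Tfap2c at DPI-1 was at 160 and 297 CPM in the epicenter, against 383 and 334 CPM rostrally and 172 and 444 CPM caudally. Its late excess was larger by 2.07 (SE 0.348, adjusted p = 0.0260). For RGD1304728 it was larger by 2.32 (SE 0.389, adjusted p = 0.0260). The call of all 3 rows was lost, with 0 rows called, when the d14r1, d28r1 or d28r3 epicenter, the d14r2 or d28r3 caudal, or the DPI-1 epicenter or caudal library of number 2 was left out. Without the DPI-1 epicenter library of number 1, 1 other row was called, and without the DPI-1 caudal library of number 1, 93 rows were. Single calls were also lost without the d28r3 rostral (Notch1, 0.0521), the d14r2 epicenter (Tfap2c, 0.0577) and the DPI-1 rostral library of number 1 (RGD1304728, 0.0767).

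Rows that changed together often neighboured each other in the genome. The order and overlap of genes were taken from the rat assembly GRCr8 in RefSeq, which is not the build the submitters name. No coordinates are given, and whether genes overlap on the build used for counting was not tested. Of the tested rows, 10099 (92.2%) were placed. Among the 575 placed rises, 233 (40.5%) had a rise called in an adjacent tested row, against 10.5% of all placed rows. Of 536 placed falls, 185 (34.5%) had an adjacent fall, against 9.74%. Counting only neighbours whose genes do not overlap, the shares were 36.0% against 9.85% and 31.3% against 9.05%. Over 10077 adjacent pairs, Pearson's r of the log2 difference was 0.38. It fell to 0.25 at 2 places, 0.17 at 3, 0.10 at 5, 0.043 at 10 and 0.016 at 20 places. The r of adjacent rows was 0.12 for the rostral minus caudal difference and 0.20 for the mean level. In the single blocks, in the same order, it was 0.28, 0.12, 0.34 and 0.22 for the epicenter minus flanks difference. For the rostral minus caudal difference it was 0.13, 0.13, 0.20 and 0.18, so the block values overlapped. These are correlations across rows of the same 12 libraries, and rows are not independent replicates.

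The longest runs were chosen after their values were seen and are given as a description. The densest stretch of rises held 9 called rows among 10 consecutive tested ones. These were Cntrob, Trappc1, Kcnab3, Rnf227 and Chd3, then Naa38, which did not pass, and Cyb5d1, Tmem88, Kdm6b and Dnah2. Their log2 differences were nearly equal, from 1.29 to 1.5, although their levels differed widely. Chd3, named for a chromatin remodeller of the NuRD complex, was at 275, 152, 223 and 190.2 CPM in the epicenter, with 101, 72.3, 105 and 79 CPM in the segment rostral to it and 91.5, 89.1, 56.2 and 66.7 CPM in the caudal one. Every epicenter library of Chd3 was above every flanking library. Dnah2, named for a dynein heavy chain of cilia, had a mean of 983 CPM in the epicenter and 399 CPM in the flanks, and Tmem88 had 11.5 and 4.35 CPM. The log2 difference was 1.33 (SE 0.157, edgeR adjusted p = 0.000316) for Chd3 and 1.40 (SE 0.183, edgeR adjusted p = 0.000591) for Dnah2. Kdm6b, named for a histone H3 lysine 27 demethylase, was at 1.36 (SE 0.184, edgeR adjusted p = 0.000591). The tested rows beyond both ends, Vamp2 and Polr2a, were at 0.79 and -0.15 and did not pass. Trappc1 lost its call without the d28r1 epicenter library (adjusted p = 0.0579), and the genes Cntrob and Trappc1 overlap.

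Pxn stood at one end of a run of 4 falls with Sirt4, LOC120096084 and Pla2g1b, whose log2 differences lay between -1.23 and -1.10. Pla2g1b, named for a pancreatic phospholipase A2, was at 56.9, 139.9, 75 and 126 CPM in the epicenter libraries, against 289, 206, 197 and 187 CPM rostrally and 182, 218, 249 and 265 CPM caudally. In each block its epicenter library was below both flanks, as for Pxn. The log2 difference was -1.22 (SE 0.217, edgeR adjusted p = 0.00338) for Pla2g1b and -1.14 (SE 0.226, edgeR adjusted p = 0.00602) for Sirt4, named for a mitochondrial sirtuin. The genes Pxn and Sirt4 do not overlap. Sirt4 lost its call without the d14r1 (adjusted p = 0.0505) or the d28r1 epicenter library (0.0577). The neighbours on the outer sides, Gcn1 and Msi1, were at -0.53 and 0.43 and did not pass. Akna and Orm1 were also adjacent, in a run of 3 rises with Whrn (0.51). Col27a1 (0.71), called higher as well, lay nearby but outside this run.

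**Figure D5:**
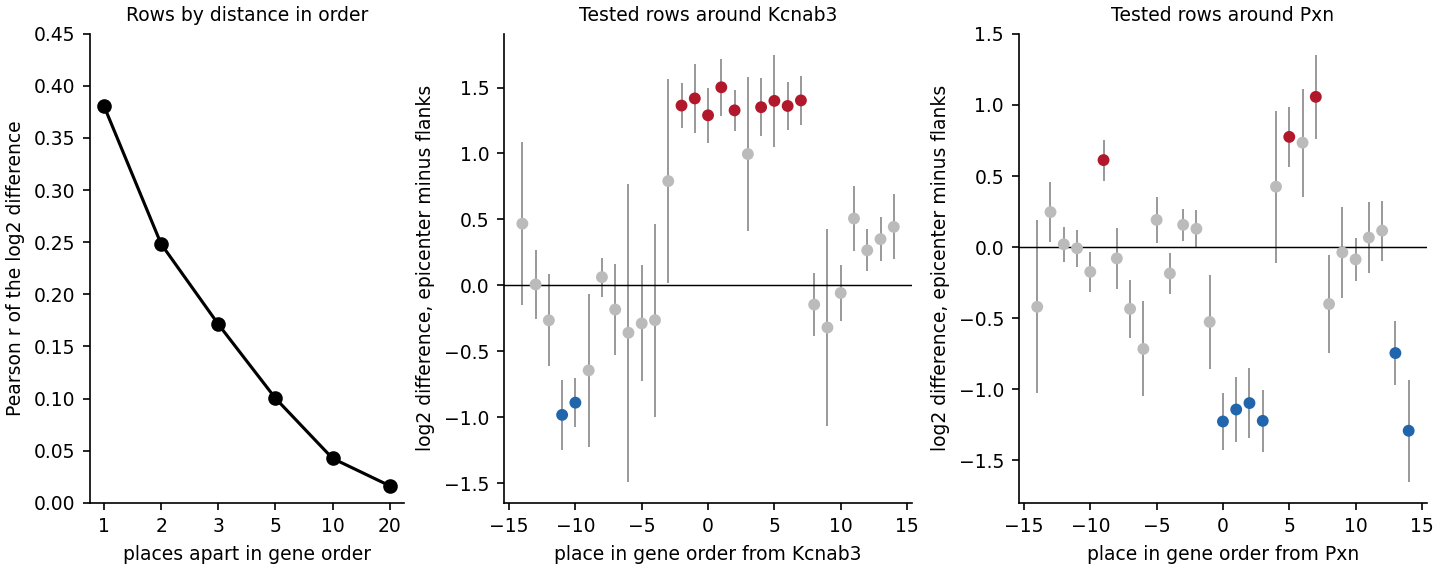
Left, Pearson's r of the log2 difference between tested rows by the number of places between them in gene order. Middle and right, the log2 difference, epicenter minus flanks, of the tested rows around Kcnab3 and around Pxn by their place in gene order, with bars of 1 SE. Called rises are red, called falls blue and other rows grey. The 9 called rises around Kcnab3 lie between 1.29 and 1.5 and the 4 falls from Pxn on between -1.23 and -1.10.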

How the data were processed

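Per the submitters' processing notes, reads were handled with HISAT2 and featureCounts and the genome build rn6; versions, annotation and strand setting are not given in the sources used here. Whole-number read counts per gene and library, not normalised, were deposited by the authors. Rows with a placeholder name held 6.34% to 7.37% of the late reads and were left out. Groups and blocks came from the sample titles.

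From the counts, edgeR 4.0.16 in R 4.3.3 filtered rows (filterByExpr, at least 10 reads, by position), scaled by TMM and fitted a quasi-likelihood model with 4 blocks and an epicenter term to the 12 late libraries, or 6 blocks and 18 injured libraries for DPI-1. Its F test gave p-values, adjusted by the Benjamini-Hochberg method over all tested rows, with 0.05 as the threshold. The SE was derived from the test, as the absolute log2 difference divided by the square root of its F statistic. Alternatives were DESeq2 1.42.0, other scaling and filters, no block, and leaving out each library or block. On simulated counts the edgeR step called 14.9%, 43.3% and 84.8% of rows changed 1.5-, 2- and 4-fold. The 12 rises and 12 falls were named by size among called rows of at least 10 CPM with the epicenter outside both flanks in every block. Of these, 1 fall is not reported here. Members, lists and rules were chosen with earlier results of these data known. Precision is limited by counting error at the lowest levels and by 7 residual degrees of freedom.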

Additional observations from a re-analysis of the deposited data

Results flagged for a closer look

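In 2 of the 33 rows examined, 1 block stood apart from the other 3 by the gap between it and the nearest, which chance gives in about 1 in 20 such groups. For Rps12 the epicenter excess in the DPI-14 block of number 2 was 0.843 on the log2(CPM + 1) scale, against 2.29 to 2.51 in the other blocks. For Cdh22 the deficit in the DPI-28 block of number 1 was -1.15, against -3.73 to -3.38 in the others.

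In 3 rows the late excess of the epicenter differed from that at DPI-1 by edgeR's test of the interaction (adjusted p = 0.0260 each). The difference was 2.07 for Tfap2c, 2.98 for Notch1 and 2.32 for RGD1304728 on the log2 scale. In all 3 rows the epicenter was below the mean of its flanks in both DPI-1 blocks and above both flanks in all 4 late blocks.

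Placeholder rows without a gene name, which entered no test, held up to 7.37% of the reads of a late library, that of the caudal segment at DPI-28, number 3. The higher of both sham libraries had 6.92%, and 4 late libraries were above it. The epicenter libraries had 6.34% to 7.11% and the flanking libraries 6.4% to 7.37%, so the ranges overlapped.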

How the results depend on the processing

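Without the replicate block the count of called rows fell from 1185 to 125 (93 higher, 32 lower) against both flanks, from 230 to 1 against the rostral and from 919 to 0 against the caudal libraries, and from 3 to 0 for the late excess against DPI-1. Libraries of the same number deviated together at DPI-28 (r of 0.73 to 0.78 between positions over 9136 rows) and not at DPI-14 (-0.19 to 0.15). Whether libraries of a DPI-14 block share more than a number is not given by the labels, and these correlations cannot settle it. A replicate block at DPI-28 only, chosen after seeing the data, called 1156 rows against both flanks and 0 for the excess against DPI-1. With no filter on low counts the counts were 784 (rostral), 1446 (caudal), 34 (rostral against caudal), 4 (DPI-28 against DPI-14) and 207 (late against DPI-1). DESeq2 called 1654 rows against both flanks, 632 against the rostral libraries, 1 between the flanks and 86 for the late excess. DESeq2 size factors in edgeR, library totals, a minimum mean of 5 CPM and the spread of the 18 injured libraries left the main count at 1154, 1187, 1234 and 852, and no filter at 1588. Leaving out 1 library or block gave 194 to 1489 calls against both flanks, 4 to 539 against the rostral and 7 to 1376 against the caudal libraries, 0 to 4 between the flanks, 0 to 3 between the days and 0 to 93 for the late excess. The cause of these changes was not tested. Of the 41 called rows examined singly, 22 lost their call without the replicate block and 21 kept it whichever library or block was left out. No called row changed direction in any alternative, and the alternatives reused all or most of the libraries that chose the rows.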
